A study of Mus musculus with 9 samples.

Results

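The 37 genes described here encode the enzymes of glycolysis, the enzymes that build and break down glycogen, the enzymes that set fructose bisphosphate levels, the transporters that carry glucose and lactate across the cell membrane, and the enzymes of the glycerol phosphate shuttle. They were given as a list of gene symbols, with no measured value in the rule, although earlier results of these data were known when the list was drawn up, and all 37 were found among the 55487 genes of the count table and passed the filter on low counts that left 14851 genes for testing. RNA was taken from the gastrocnemius, the large calf muscle, of wild-type mice, C57BL/6 per the labels and C57BL/6J in the study's text, and polyadenylated RNA was sequenced. Control (n = 4 libraries) came from mice walking normally in their cages, Unloading (n = 2) from mice whose hindlimbs had borne no weight for 10 days, and Reloading (n = 3) from mice returned to normal cage activity for 1 day after such unloading. The mice carried no engineered allele per the labels, which give their sex as male, although the methods name female animals for hindlimb unloading, and their age is not given in the sources used here. The model removes weight from the hindlimbs by raising the tail, so the muscle can still contract while it bears no load. Where nothing says that the libraries of a group came from separate animals, p-values measure only the spread between these libraries.

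Glycolysis splits glucose into pyruvate in the cytosol and needs no oxygen, and fast muscle fibres such as those that make up most of the mouse gastrocnemius rely on it during short, strong contractions. Glycogen, the branched store of glucose in the fibre, feeds the pathway when phosphorylase kinase switches on glycogen phosphorylase. Most steps are carried by an enzyme form that is abundant in skeletal muscle, while other genes encode forms known from liver, brain, blood cells and most other tissues, so that the balance of forms in a piece of muscle reflects both its fibres and its other cells.

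Libraries held between 9252443 and 19612101 counted read pairs, and 1 pair corresponded to between 0.0546 and 0.113 CPM, the unit used below for counts scaled to 1e+06 per library after TMM adjustment of library sizes (trimmed mean of M-values). The labelled tissue was checked by its markers, and all 12 myofibre markers were detected in every library, with summed levels of 173794 to 187523 CPM in Control, 184064 to 184708 CPM in Unloading and 130304 to 144268 CPM in Reloading. Transcripts of keratinocytes, the cells of skin, summed to 309.9 CPM in the highest Control library and 143.7 CPM in the highest Reloading library, against 4.04 to 4.12 CPM in Unloading. The libraries that carried them, Control 2 and Reloading 1, stand apart in this respect, and counts with and without them are given where they matter. TMM factors were 0.928 to 0.96 in Control and Unloading and 1.11 to 1.13 in Reloading. The fold change of every gene in Reloading, abundant or scarce, therefore depends on the scaling. With library totals alone, the tested genes as a whole shifted, and their median log2 fold change moved from 0.03 to 0.27 in Reloading against Unloading and from 0.01 to 0.25 in Reloading against Control.

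The 250 bases before the RefSeq start sites (build GRCm38.p6) are printed for the members on which the results below turn most: Pfkfb3, which had the largest change of all 37, and the Pgam and Ldh pairs, whose forms shifted against each other. In each, capitals mark matches on either strand to the motifs that were searched, which were the GC box GGGCGG, the core of the hypoxia response element ACGTG, the E-box CACGTG, the TATA box TATAAA, the AP-1 site TGANTCA and the MEF2 core CTAAAAATA. A CACGTG holds an ACGTG on each strand and is counted under both motifs. Pfkfb3 has 2 start sites in RefSeq on the minus strand, at chr2:11502091-11502340 and chr2:11553930-11554179. The window of Pgam1 is chr19:41911621-41911870 on the plus strand and that of Pgam2 is chr11:5803797-5804046 on the minus strand. The window of the first Ldha start site is chr7:46845554-46845803 on the plus strand, and that of Ldhb is chr6:142507958-142508207 on the minus strand.
Pfkfb3, first start site: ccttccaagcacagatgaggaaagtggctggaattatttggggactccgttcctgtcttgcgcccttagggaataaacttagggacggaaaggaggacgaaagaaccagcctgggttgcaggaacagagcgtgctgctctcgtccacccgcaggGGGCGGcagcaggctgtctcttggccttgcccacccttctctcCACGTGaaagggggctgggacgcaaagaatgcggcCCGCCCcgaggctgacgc
Pfkfb3, second start site: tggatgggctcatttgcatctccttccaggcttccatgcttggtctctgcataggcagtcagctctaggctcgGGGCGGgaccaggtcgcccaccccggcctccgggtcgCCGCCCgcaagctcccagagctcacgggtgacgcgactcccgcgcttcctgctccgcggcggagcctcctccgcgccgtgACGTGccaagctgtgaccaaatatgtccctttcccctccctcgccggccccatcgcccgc
Pgam1: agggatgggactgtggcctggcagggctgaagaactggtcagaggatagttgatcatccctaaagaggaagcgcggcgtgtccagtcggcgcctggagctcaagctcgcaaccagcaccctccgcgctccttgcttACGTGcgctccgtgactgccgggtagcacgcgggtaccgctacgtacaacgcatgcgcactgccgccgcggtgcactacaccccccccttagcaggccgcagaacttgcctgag
Pgam2: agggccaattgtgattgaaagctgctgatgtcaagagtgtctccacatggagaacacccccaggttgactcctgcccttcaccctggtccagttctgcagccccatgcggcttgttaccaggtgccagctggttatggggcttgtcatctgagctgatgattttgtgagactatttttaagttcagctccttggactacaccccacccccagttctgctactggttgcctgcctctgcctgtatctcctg
Ldha: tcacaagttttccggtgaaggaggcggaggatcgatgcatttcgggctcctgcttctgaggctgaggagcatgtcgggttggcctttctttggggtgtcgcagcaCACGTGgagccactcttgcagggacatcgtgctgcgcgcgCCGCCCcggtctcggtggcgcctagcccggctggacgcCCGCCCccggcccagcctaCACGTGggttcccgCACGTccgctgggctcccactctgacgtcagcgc
Ldhb: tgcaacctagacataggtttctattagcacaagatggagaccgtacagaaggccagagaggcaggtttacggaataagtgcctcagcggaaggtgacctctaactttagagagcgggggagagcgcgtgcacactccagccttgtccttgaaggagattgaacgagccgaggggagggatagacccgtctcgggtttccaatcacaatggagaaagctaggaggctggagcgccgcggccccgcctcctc

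Both Pfkfb3 windows hold GC boxes and the ACGTG core, the Pgam1 window holds the core once, and the printed Ldha window holds it 5 times, of which 4 lie in 2 copies of CACGTG. The window of the second Ldha start site, which is not printed, holds no match to any of the motifs. The windows of Pgam2 and Ldhb hold none of the searched letters. Motifs were matched only as the letters given, so variants of a site, those of MEF2 among them, were not counted. The lack of a match therefore does not mean that a site is absent. RefSeq windows were found for 35 of the 37 members, with 52 start sites in all, and none for Slc2a4 and Gpd1. The core ACGTG was present in at least 1 window of 16 of the 35 members (45.7%), against 18.5% of all genes with a window, and the GC box in 23 of 35 (65.7%), against 35.4%. Counted over start sites, 19 of 52 member windows (36.5%) held ACGTG against 16.6% of all 32851 windows. The member windows were also richer in G and C, with a median of 59.8% against 52.4%. The TATA box was found in 1 member (2.86% against 14.3% of genes), the E-box in 5 (14.3% against 6.86%), the AP-1 site in 2 (5.71% against 7.82%) and the MEF2 core in none (0% against 0.537%). The 16 members with ACGTG included genes that were higher, genes that were lower and genes that did not pass in Reloading against Control. A match is a description of the letters in the window.

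In Control, the highest levels per kilobase were those of Aldoa, the muscle aldolase (5023 CPM per kilobase), Eno3, the muscle enolase (3670), Pygm, the muscle glycogen phosphorylase (3117), and Pgam2, the muscle phosphoglycerate mutase (2320). The lowest were those of Pfkp (0.377), Aldoc (0.753), Pgm2 (0.766) and Hk1 (0.791). Together the members made up 5.95% ± 0.205 (SD, n = 4) of all counts in Control, 5.99% ± 0.316 (n = 2) in Unloading and 5.85% ± 0.0617 (n = 3) in Reloading. Of the counts that were not mitochondrial they made up 6.6% ± 0.186, 6.65% ± 0.377 and 6.27% ± 0.0668 in the same order. The means of the first share differed by less than the SD of Control, while single genes moved in both directions. The mean of the second share in Reloading lay below that of Control by more than the SD of Control. After TMM adjustment the members summed to 60489 to 65035 CPM in Control, 60858 to 66600 CPM in Unloading and 51854 to 52986 CPM in Reloading. By that measure Reloading lay below both other groups without overlap, so the result for the sum depends on the scaling.

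After 10 days of unloading, few of the genes had moved. Pfkfb3, which encodes the enzyme that makes and removes fructose 2,6-bisphosphate, the strongest activator of phosphofructokinase, rose 2.38-fold, and Fbp2, the muscle fructose bisphosphatase that runs the same step in reverse, rose 1.63-fold. Gbe1, the glycogen branching enzyme, and Phka1, the muscle regulatory subunit of phosphorylase kinase, rose 1.28-fold and 1.2-fold. Pgam2 fell by 37.8%, Ldhb, the heart form of lactate dehydrogenase, fell by 31.6%, and Hk2, the insulin-responsive hexokinase of muscle, fell by 22.6%. Thus 4 members were higher and 3 lower in Unloading than in Control by edgeR's quasi-likelihood test, 7 of 37 against 9.9% of all tested genes called in either direction (4.4% higher and 5.5% lower), and the other 30 did not pass. Only Pfkfb3 passed with at least a 2-fold change, against 1.19% of all tested genes. The members' median log2 fold change was -0.05, against -0.0038 over all tested genes.

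In the Control libraries, Pfkfb3 was measured at 445, 413, 527 and 455 CPM. It was at 840.1 and 1345 CPM in Unloading, and at 541, 519 and 296 CPM in Reloading. Both Unloading libraries lie above every other library but differ from each other by more than the whole Control range, and the Reloading libraries span the whole Control range. The log2 fold change was 1.25 ± 0.19 (SE) in Unloading against Control (adjusted p = 0.00196, edgeR) and -1.27 ± 0.21 in Reloading against Unloading (adjusted p = 0.000267), the largest of any member in either comparison. In Reloading against Control it was -0.02 ± 0.18 (adjusted p = 0.924). Leaving out Unloading 2, the highest library, left a log2 fold change of 0.87 against Control and of -0.90 in Reloading against Unloading, both still past the threshold. These comparisons share the Unloading libraries, so the rise and the fall are not independent of each other.

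Fbp2 was at 40.7, 45.3, 37.7 and 40.1 CPM in Control, 64.6 and 68.6 CPM in Unloading, and 52.9, 58.1 and 53.7 CPM in Reloading. The 3 groups do not overlap, and Reloading lies between the others. Its log2 fold change was 0.70 ± 0.08 in Unloading against Control (adjusted p = 0.000251), -0.28 ± 0.09 in Reloading against Unloading (adjusted p = 0.019) and 0.42 ± 0.07 in Reloading against Control (adjusted p = 0.000317). The return towards Control was the least firm of these, since its call was lost without Reloading 1, Reloading 3 or Unloading 2 (log2 fold changes of -0.25, -0.26 and -0.24), with the description numbers as a replicate block (-0.26) and with library totals alone (-0.03). Fbp2 and the other members given per library beside the phosphofructokinase, Pgam and Pfkfb genes were chosen after their values were seen.

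Of the other enzymes of fructose 2,6-bisphosphate, Pfkfb1 did not pass in Unloading against Control and was lower in Reloading, and Pfkfb4, a form known from testis and from cells short of oxygen, was higher in Reloading. Pfkfb1 was at 65.4, 69.6, 62.4 and 72.8 CPM in Control, 65.6 and 67.0 CPM in Unloading and 41.5, 40.4 and 44.9 CPM in Reloading, with no overlap between Reloading and the other groups. Pfkfb4 was at 68.0, 70.5, 74.5 and 67.1 CPM in Control, 67.0 and 69.3 CPM in Unloading and 92.7, 87.8 and 85.2 CPM in Reloading, again without overlap but in the other direction. The log2 fold changes against Control were -0.68 ± 0.07 for Pfkfb1 (adjusted p = 3.75e-06) and 0.34 ± 0.06 for Pfkfb4 (adjusted p = 0.000621). In Control their levels per kilobase were 16.8 and 14.4 CPM, and in Reloading 10.5 and 18.2 CPM.

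**Figure D1:**
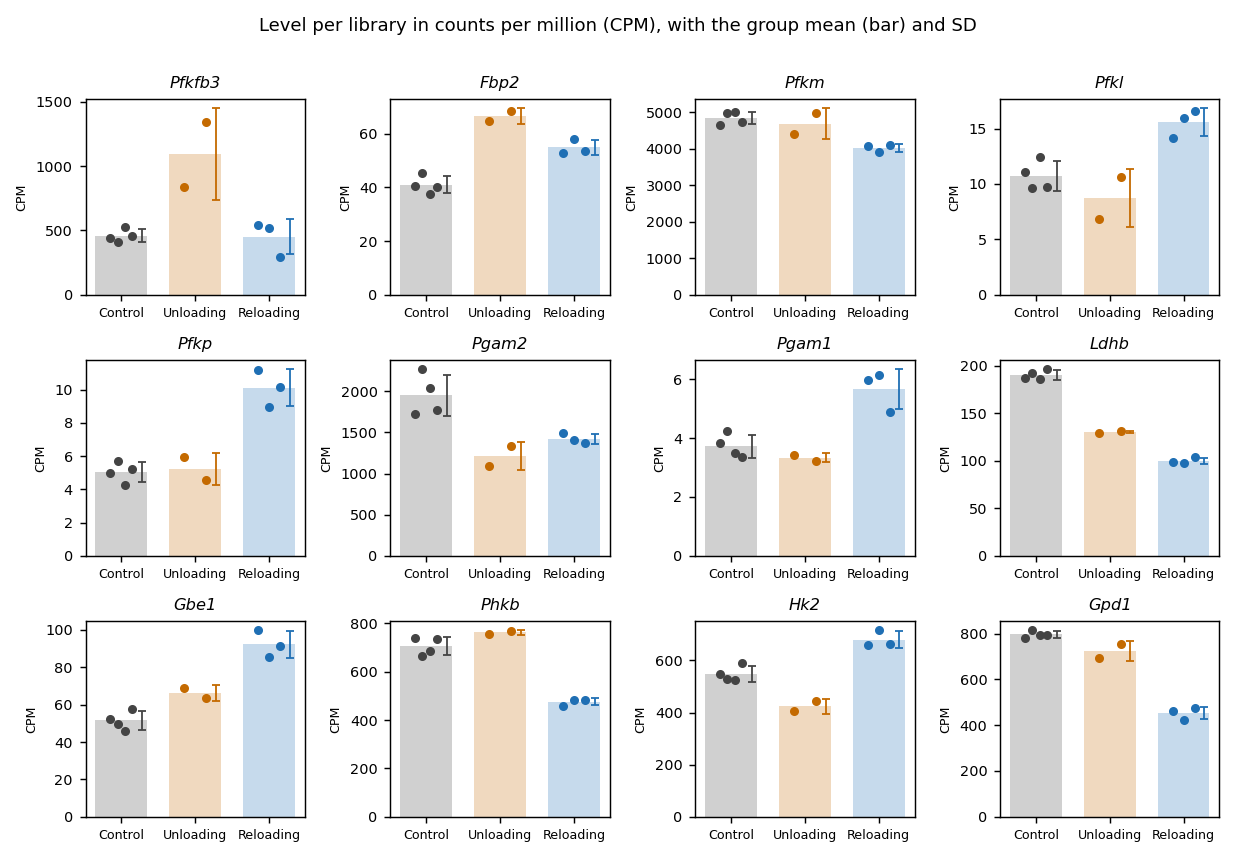
Levels of 12 members per library in CPM (vertical axes, each starting at 0) in Control (4 libraries, grey), Unloading (2, orange) and Reloading (3, blue). Points are libraries, bars are group means and lines are SD; Pfkfb3 peaks in Unloading, Pfkl, Pfkp and Pgam1 are highest in Reloading, and Ldhb falls from 185.6 to 196.1 CPM in Control to 97.9 to 103.5 CPM in Reloading.

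One day of reloading moved most of the members. In Reloading against Unloading, 13 members rose, 16 fell and 8 did not pass, against 37.5% of all tested genes called in either direction (18.5% higher and 19% lower). In Reloading against Control, 12 rose, 18 fell and 7 did not pass, against 43.5% of all tested genes (22.1% higher and 21.3% lower). The members' median log2 fold change was -0.12 in the first and -0.19 in the second, where all tested genes had medians of 0.03 and 0.01. These comparisons share the Reloading libraries; 11 members were called higher and 14 lower in both. A change of at least 2-fold was called for 1 member in each comparison, Pfkfb3 against Unloading and Pfkp against Control, against 8.23% and 7.84% of all tested genes. With library totals alone as the scaling, the split turned to 17 higher and 7 lower against Unloading and 16 higher and 6 lower against Control. Under that scaling the calls of Pfkm, Tpi1, Gapdh, Ldha, Ldhb, Pygm, Gyg, Fbp2 and Gpd2 as lower than Unloading were lost, and so were those of Pfkm, Aldoa, Tpi1, Gapdh, Pgk1, Pgam2, Eno3, Pkm, Pygm, Gyg, Phka1 and Gpd2 as lower than Control. Hk1, Hk2, Pfkl, Pfkp, Pgam1, Ugp2, Gbe1, Pfkfb4 and Slc16a1 remained higher and Gpd1, Pfkfb1, Phkb and Phkg1 remained lower in both comparisons under every scaling, filter, test and omission tried. Relative to the median of all genes, the members' median was -0.14 against Unloading and -0.21 against Control under either scaling. A change of scaling moves all genes by nearly the same amount, so these differences could not have changed with it. Without Control 2 and Reloading 1, 13 members were higher and 12 lower against Unloading, and 10 higher and 16 lower against Control. Gpi1, Aldoc, Eno1 and Slc2a4 did not pass the test in any of the 3 comparisons.

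**Figure D2:**
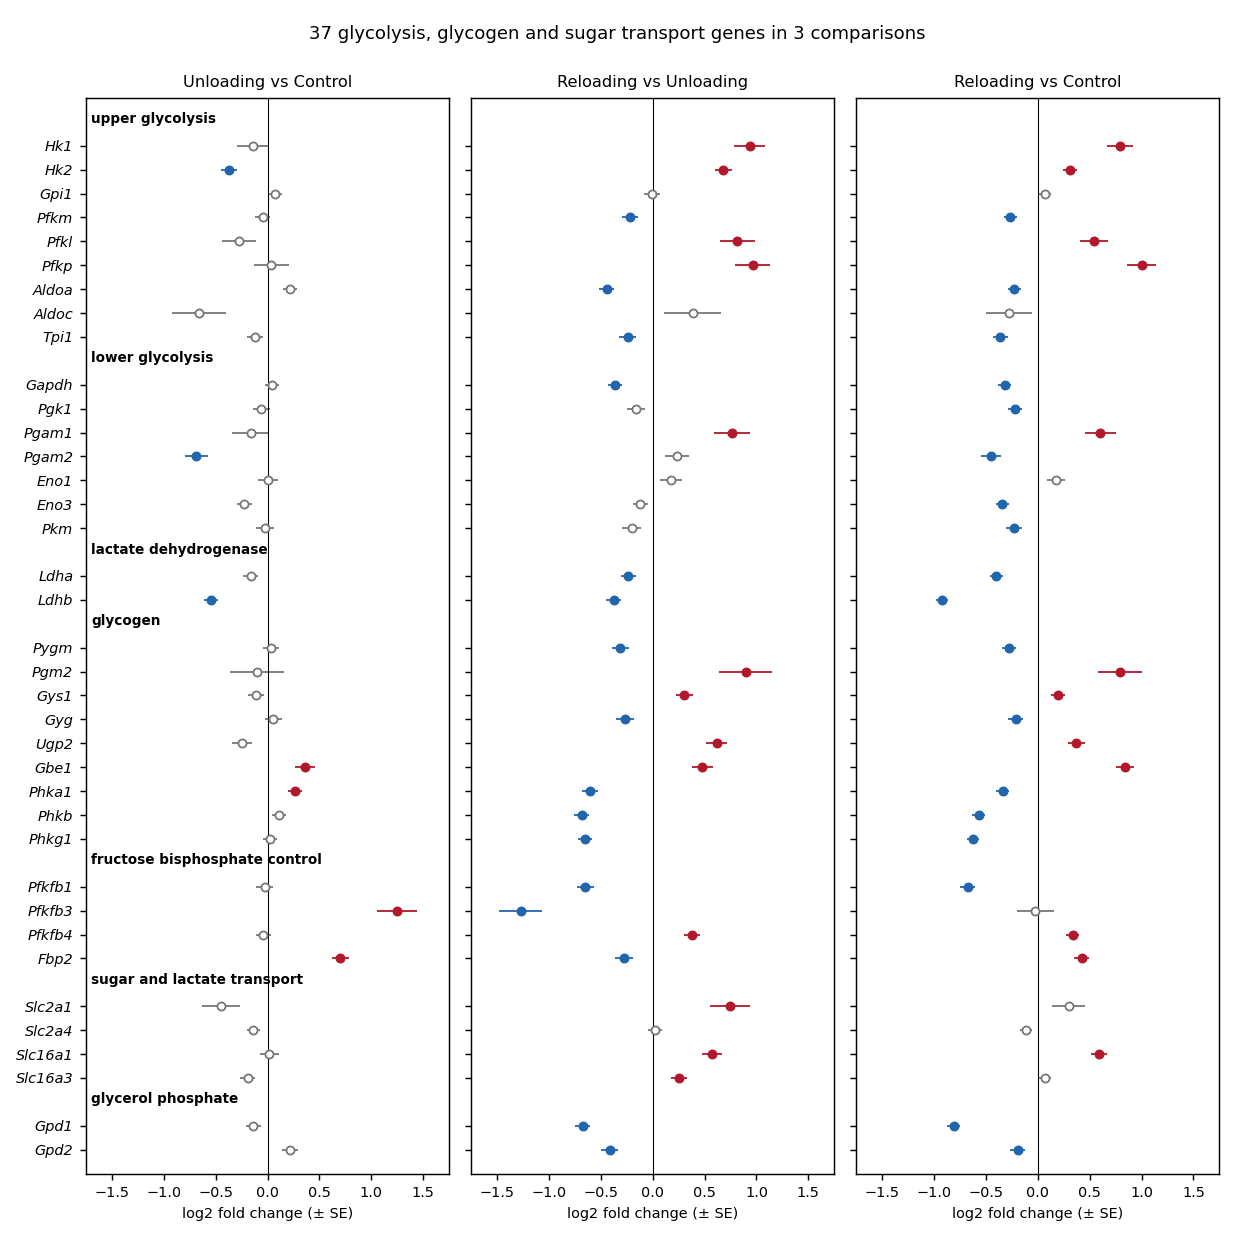
log2 fold change of each of the 37 genes (horizontal axes, with SE) by role in Unloading against Control, Reloading against Unloading and Reloading against Control. Filled red points were called higher and filled blue points lower at an adjusted p under 0.05, and open grey points did not pass; 7 points are filled in the first panel, 29 in the second and 30 in the third.

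Other cell types moved with the same groups. In Reloading against Unloading, 10 of 12 macrophage markers, 8 of 9 endothelial markers, 6 of 7 smooth muscle markers and 3 of 6 markers of nerve and Schwann cells rose, while 10 of 12 fast fibre markers and 3 of 10 slow fibre markers fell. Summed macrophage marker levels were 95.3 to 114.5 CPM in Control, 98.1 to 99.4 CPM in Unloading and 185.5 to 209.3 CPM in Reloading. Summed endothelial marker levels were 177.6 to 216.0 CPM, 188.3 to 193.7 CPM and 309.3 to 390.2 CPM in the same order. Summed fast fibre marker levels were 176875 to 191780 CPM, 198639 to 202106 CPM and 133773 to 146771 CPM. Smooth muscle markers summed to 143.2 to 171.5 CPM, 127.9 to 130.4 CPM and 214.6 to 242.4 CPM, and nerve and Schwann markers to 17.8 to 36.1 CPM, 23.4 to 30.3 CPM and 59.9 to 79.7 CPM. Of 8 neutrophil markers, 2 were expressed enough to be tested and neither was called. Every macrophage, endothelial, smooth muscle, nerve and fibre marker was detected in every library. Of 8 fibroblast markers, 3 rose and 2 fell, and of 6 markers of satellite cells, the stem cells of muscle, 2 rose and none fell. No keratinocyte or erythrocyte marker was called, and 1 of 6 adipocyte markers tested rose. The part of these changes in those of the members was not tested, and in bulk tissue fewer cells of a type and less RNA per cell cannot be told apart.

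The early steps of glycolysis spend ATP to prepare the sugar, and on reloading the scarcer forms of hexokinase and phosphofructokinase rose while several of the abundant enzymes fell. Hk2, which traps glucose in the fibre as glucose 6-phosphate, was at 547, 529.8, 525 and 589 CPM in Control, 404 and 443 CPM in Unloading and 657, 716 and 662 CPM in Reloading, so that the 3 groups do not overlap and Reloading is the highest. Its log2 fold change was 0.68 ± 0.08 in Reloading against Unloading (adjusted p = 1.6e-05) and 0.31 ± 0.07 against Control (adjusted p = 0.00145). Hk1, the hexokinase of most other tissues, was far scarcer, with 47 to 110 read pairs per Control library, and rose 1.92-fold against Unloading and 1.74-fold against Control. Gpi1, which turns glucose 6-phosphate into fructose 6-phosphate, had log2 fold changes of -0.01 and 0.07. Aldoa and Tpi1, which split the sugar and interconvert the products, fell by 14.6% and 22.1% against Control, although with library totals alone the value of Aldoa turned to 0.01 on the log2 scale and that of Tpi1 no longer passed. A separate gene ID also named Aldoa, which covers exons upstream at chr7:126800790-126809108 and shares no exon base with the main one, fell by 44.9%. Aldoc, the brain aldolase, had 19 to 37 read pairs per library and log2 fold changes between -0.66 and 0.38, none of which passed.

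Phosphofructokinase, the committed step, has 3 forms among the members. Pfkm, the muscle form, was at 4655, 4967, 5007 and 4722 CPM in Control, 4391 and 4981 CPM in Unloading and 4078, 3901 and 4092 CPM in Reloading. Reloading lies below both other groups, and the fall was by 16.8% against Control (adjusted p = 0.0038), a call that was lost with library totals alone (-0.03 on the log2 scale). Pfkl, the liver form, was at 11.1, 9.62, 12.4 and 9.69 CPM in Control, 6.89 and 10.6 CPM in Unloading and 14.2, 15.9 and 16.6 CPM in Reloading. Pfkp, the platelet form, was at 4.96, 5.72, 4.29 and 5.23 CPM in Control, 5.91 and 4.54 CPM in Unloading and 11.2, 8.97 and 10.1 CPM in Reloading. Every Reloading library lies above every other library for both of the scarce forms. Pfkl rose 1.45-fold against Control (adjusted p = 0.00538) and Pfkp 2-fold (adjusted p = 4.47e-05), and against Unloading they rose 1.76-fold and 1.95-fold.

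The later steps of glycolysis return ATP, and their abundant enzymes were modestly lower in Reloading. Against Control, Gapdh fell by 19.9%, Pgk1 by 14.1%, Eno3 by 21.1% and Pkm, which forms pyruvate, by 14.8%. With library totals alone Pgk1 and Pkm turned to 0.02 and 0.01 on the log2 scale, and Gapdh and Eno3 stayed lower but did not pass. Against Unloading, Gapdh passed (-0.36 ± 0.07, adjusted p = 0.00103) but not with library totals alone (-0.11), while Pgk1, Eno3 and Pkm had log2 fold changes of -0.16, -0.12 and -0.20 and did not. Of the 50-base windows in their exons, 53.9% for Pgk1, 25.8% for Pkm and 25.1% for Gapdh also occur in exons of another gene. Reads that map to several places were not counted, and how many reads of these genes were lost in this way was not tested.

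Phosphoglycerate mutase has a muscle form, Pgam2, and a form of most other tissues, Pgam1. Pgam2 was at 1719, 2267, 2039 and 1770.1 CPM in Control, 1092 and 1332 CPM in Unloading and 1494, 1403 and 1377 CPM in Reloading, with every Control library above all the others. Its log2 fold change was -0.69 ± 0.11 in Unloading against Control (adjusted p = 0.0024) and -0.45 ± 0.10 in Reloading against Control (adjusted p = 0.00139). Without Unloading 1 the first became -0.55 and no longer passed, and with library totals alone the second became -0.21 and no longer passed. Pgam1 was at 3.83, 4.23, 3.50 and 3.35 CPM in Control, 3.44 and 3.22 CPM in Unloading and 5.96, 6.15 and 4.90 CPM in Reloading, with Reloading above both other groups. Its log2 fold change was 0.60 ± 0.15 in Reloading against Control (adjusted p = 0.00423). Of the windows of Pgam1, 36.2% are shared with other genes, against 0% for Pgam2, and its lowest library held 34 read pairs.

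Both forms of lactate dehydrogenase fell in Reloading. Ldhb was at 187, 192, 186 and 196 CPM in Control, 129 and 131 CPM in Unloading and 98.7, 97.9 and 103.5 CPM in Reloading, a fall at both steps with no overlap between any groups. Its log2 fold change was -0.55 ± 0.07 in Unloading against Control (adjusted p = 0.000356), -0.38 ± 0.07 in Reloading against Unloading (adjusted p = 0.000665) and -0.93 ± 0.06 in Reloading against Control (adjusted p = 2.37e-08). With library totals alone the value of Ldhb against Unloading was -0.13 and did not pass. Ldha, which favours lactate formation and had at least 7.96 times the reads per kilobase of Ldhb in each Control library, had a log2 fold change of -0.16 ± 0.07 in Unloading against Control, which did not pass, and in Reloading fell by 15% against Unloading and fell by 24.1% against Control. The first turned to 0.01 on the log2 scale under that scaling.

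All 9 glycogen genes passed in Reloading against Unloading, 4 higher and 5 lower, where 37.5% of all tested genes were called (18.5% higher and 19% lower). The calls of Pygm, Pgm2, Gys1 and Gyg in this comparison could each be lost by leaving out a single library. Among enzymes of synthesis, Ugp2, which makes UDP-glucose, rose 1.53-fold against Unloading and 1.29-fold against Control, Gys1, the muscle glycogen synthase, rose 1.23-fold and 1.15-fold, and Gbe1 rose 1.39-fold and 1.79-fold. Gyg, glycogenin, which starts the glycogen particle, fell by 17% and 13.7%, which with library totals alone became -0.02 and 0.03 on the log2 scale. Gbe1 rose at both steps, with 52.6, 49.8, 46.1 and 57.9 CPM in Control, 69.1 and 63.3 CPM in Unloading and 99.9, 85.4 and 91.6 CPM in Reloading and no overlap between groups. Among enzymes of breakdown, Pygm fell by 19.4% and 17.5%, without passing when scaled by library totals alone, and the 3 subunits of phosphorylase kinase measured here fell together.

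Phka1 was at 1133, 1008, 1086 and 1169 CPM in Control, 1341 and 1299 CPM in Unloading and 854, 876 and 877 CPM in Reloading, so that it was highest in Unloading and lowest in Reloading. Phkb, the beta subunit, was at 739, 663, 687 and 736 CPM in Control, 756 and 769 CPM in Unloading and 459, 485 and 482 CPM in Reloading. Phkg1, the catalytic subunit of muscle, was at 603, 576, 596 and 589 CPM in Control, 597 and 604 CPM in Unloading and 379, 370.2 and 399 CPM in Reloading. No Reloading library of the 3 genes overlaps with any other library. Against Unloading they fell by 34.1%, 37.7% and 36.2%, with adjusted p-values of 2.56e-05, 6.99e-06 and 5.93e-06, and against Control by 20.9%, 32.7% and 35.2%. The fall of Phka1 against Control became -0.10 on the log2 scale with library totals alone and did not pass. Pgm2, the gene that the files give this symbol (ENSMUSG00000029171), had 13 to 54 read pairs per library and rose 1.86-fold and 1.73-fold. RefSeq lists Pgm1 as an older symbol of this gene and Pgm2 as an older symbol of the abundant phosphoglucomutase, which the files name Pgm1. The list may therefore have meant the abundant gene, which fell and is among the further genes below.

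Of the 4 transporters at the cell surface, 3 rose against Unloading and 1 rose against Control, where 18.5% and 22.1% of all tested genes were higher. Slc2a4 (GLUT4), the glucose transporter that insulin and contraction bring to the fibre surface, had log2 fold changes of 0.02, -0.14 and -0.11 in Reloading against Unloading, Unloading against Control and Reloading against Control, and none passed. Slc2a1 (GLUT1), the basal transporter of most tissues, rose 1.67-fold against Unloading but was at 6.89 and 4.10 CPM in the 2 Unloading libraries, and the call was lost without Unloading 2 (log2 fold change 0.38 in place of 0.74). Against Control its log2 fold change was 0.30 (adjusted p = 0.139). Slc16a1 (MCT1), which takes up or releases lactate, rose 1.48-fold against Unloading and 1.5-fold against Control. Slc16a3 (MCT4), the lactate exporter of fast fibres, rose 1.2-fold against Unloading and did not pass against Control (log2 fold change 0.07). Its call against Unloading was lost without Reloading 3 or Unloading 2.

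Both enzymes of the glycerol phosphate shuttle, which carries reducing equivalents from glycolysis to the mitochondria, fell. Gpd1, the cytosolic enzyme, was at 782, 815, 794 and 794 CPM in Control, 693 and 755 CPM in Unloading and 462, 425 and 474 CPM in Reloading, with no overlap between any groups, and fell by 37.3% against Unloading (adjusted p = 8.25e-06) and by 43% against Control (adjusted p = 1.68e-07). Gpd2, the mitochondrial enzyme, fell by 24.9% against Unloading and by 12.6% against Control (adjusted p = 0.035), values that with library totals alone became -0.17, which did not pass, and 0.05 on the log2 scale. With the replicate numbers of the descriptions as a block, the comparison with Control gave -0.15 on the log2 scale and did not pass (adjusted p = 0.0578).

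Because fold changes in Reloading depend on the scaling, the balance of forms was also taken within each library. It was taken in 11 pairs, as the log2 ratio of reads per kilobase of the form best known from muscle to the other form. The ratio was lower in every Reloading library than in every Unloading library for 9 of the 11 pairs, and higher for 1. Against Control it was lower without overlap for 8 pairs and higher for 1, and in Unloading against Control it was lower for 3 and higher for 2. The median difference over the 11 pairs was -0.52 in Reloading against Unloading, -0.09 in Unloading against Control and -0.53 in Reloading against Control. The exact permutation test cannot go below p = 0.2, 0.133 and 0.0571 in these comparisons, so none of the 33 tests could pass, and each pair without overlap has the smallest p that its comparison allows. Pfkm and Pfkfb1 each stand in 2 pairs, and the comparisons share libraries, so the pairs are not independent. Outside the pairs of Pfkfb1, the form taken as that of muscle was the more abundant in every library. Pfkfb1 was scarcer per kilobase than Pfkfb3 in every library, with log2 ratios from -3.41 to -1.66. Of all tested genes with a mean of at least 93.5 CPM per kilobase, 55.6% were lower in Reloading than in Unloading and 70.9% lower than in Control. Of the genes under that level, 18% and 20% were. The share without overlap among ratios of other genes as unlike in abundance was not computed. Among single genes, the CPM of the groups did not overlap for 14 members that were higher and 17 that were lower in Reloading against Unloading, where 60% of all tested genes had no overlap (31% higher and 29% lower). In Unloading against Control this held for 7 and 10 members, against 33% of genes (16.4% higher and 16.6% lower), and in Reloading against Control for 12 and 19 members, against 46.9% of genes (24.2% higher and 22.7% lower).

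The largest difference of any pair was that of Pfkm to Pfkp in Reloading against Control. It rests on few reads of Pfkp, with 44 to 69 read pairs per library in Control, 79 and 83 in Unloading and 124 to 153 in Reloading. The log2 ratio of Pfkm to Pfkp was 11.92 ± 0.19 (SD, n = 4) in Control, 11.82 ± 0.40 (n = 2) in Unloading and 10.65 ± 0.13 (n = 3) in Reloading, which is 3484 to 4686 Pfkm reads per kilobase for each of Pfkp in Control and 1461 to 1746 in Reloading. The log2 ratio of Pfkm to Pfkl fell from 10.10 ± 0.31 in Unloading to 9.02 ± 0.13 in Reloading. The Pgam2 to Pgam1 ratio stepped down through the groups, at 10.27 ± 0.16 in Control, 9.74 ± 0.27 in Unloading and 9.22 ± 0.15 in Reloading, without overlap at either step. The Eno3 to Eno1 ratio did the same, at 8.11 ± 0.09, 7.88 ± 0.11 and 7.58 ± 0.09, although neither enolase passed the test on its own in Unloading. The ratio of Pfkfb1 to Pfkfb4 was 0.23 ± 0.15 in Control, 0.24 ± 0.01 in Unloading and -0.79 ± 0.13 in Reloading, so that the more abundant form per kilobase changed. The ratio of Pfkfb1 to Pfkfb3 differed most in Unloading, at -3.09 ± 0.46 against -1.85 ± 0.22 in Control.

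Hk2 to Hk1, Slc2a4 to Slc2a1 and Slc16a3 to Slc16a1 were lower in Reloading than in Control by 0.52, 0.42 and 0.52 on the log2 scale, each without overlap. The first of these fell although Hk2 itself rose, since Hk1 rose more. Ldha to Ldhb was higher in Reloading than in both other groups, at 3.04 ± 0.05 in Control, 3.42 ± 0.11 in Unloading and 3.56 ± 0.03 in Reloading, without overlap at either step. Aldoa to Aldoc was higher in Unloading (13.59 ± 0.01) than in Control (12.72 ± 0.23) and in Reloading (12.79 ± 0.29), and rests on the few reads of Aldoc. The macrophage, endothelial, smooth muscle and nerve markers that were higher in Reloading, with the sums given above, moved together with these ratios, and their part in them was not tested.

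**Figure D3:**
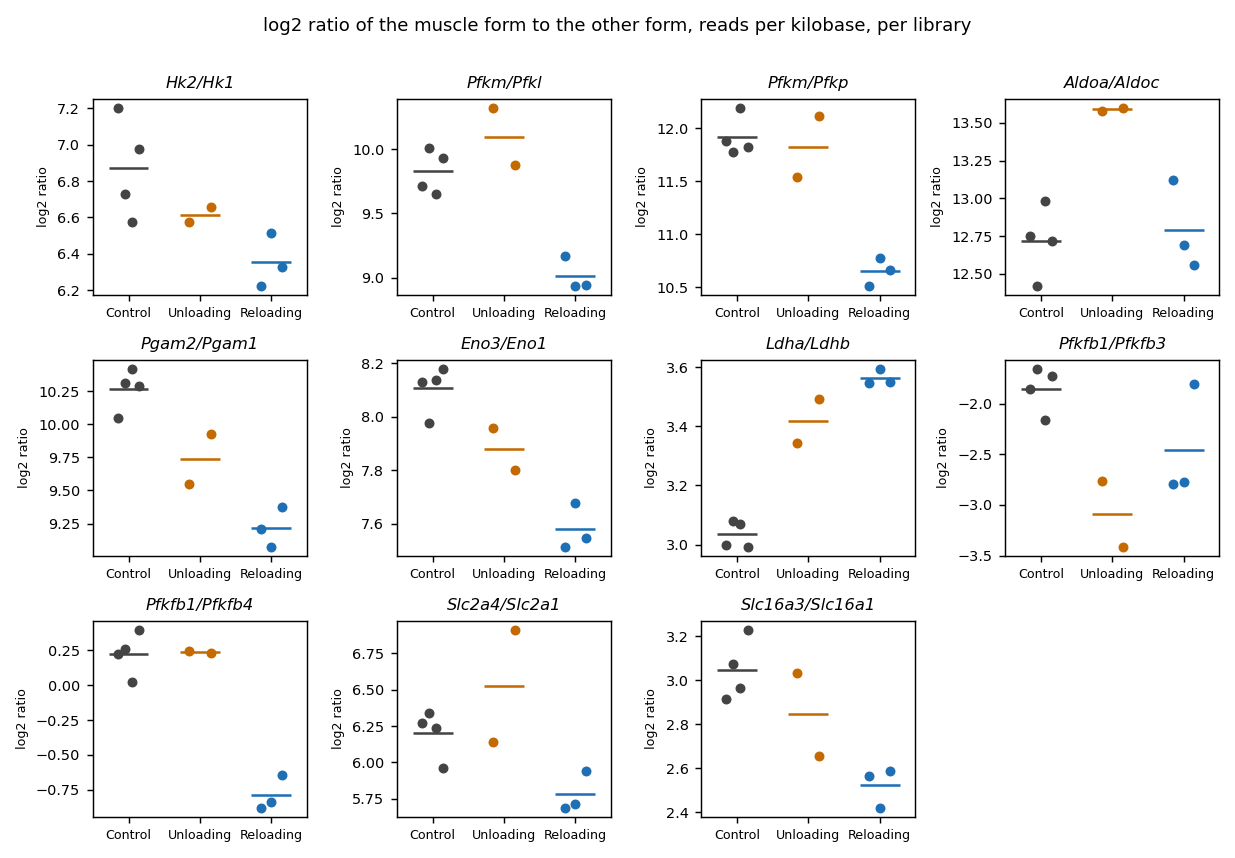
log2 ratio of reads per kilobase of the form best known from muscle to the other form for 11 pairs (vertical axes, which do not start at 0). Points are the libraries of Control (grey), Unloading (orange) and Reloading (blue), with group means as lines. In the pair of Pfkfb1 and Pfkfb3, the other form, Pfkfb3, was the more abundant in every library. Reloading lies below Unloading without overlap in 9 pairs and above it in Ldha to Ldhb.

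On reloading, the direction of change went with abundance. Across the 37 members, Spearman's rho between the mean level per kilobase in the Unloading libraries and the log2 fold change of Reloading against Control, which uses other libraries, was -0.625, and over all 14851 tested genes it was -0.3. Genes are not independent replicates, and rho is given as a description. The members were then divided at their median level over all 9 libraries, 93.5 CPM per kilobase. Of the 19 members at or over it, 14 (73.7%) were lower in Reloading than in Control, against 70.9% of the 381 tested genes as abundant, so the share near the background says nothing particular to these members. Of the 18 under it, 9 (50%) were higher, against 22.4% of the 14470 tested genes under it. Those genes had no lower limit of level and included some scarcer than any member, so they were not matched to the members in level. This also holds for the shares of scarce genes that follow. Against Unloading, 10 of 19 (52.6%) were lower at or over that level, against 55.6% of genes, and 10 of 18 (55.6%) were higher under it, against 18.7%. Divided at 50 CPM per kilobase in Unloading instead, 17 of 24 (70.8%) abundant members were lower and 9 of 13 (69.2%) scarce members higher in Reloading than in Control, against 66.2% and 22.7% of genes. Both divisions were chosen after fold changes were seen. Hk2, Gys1 and Ugp2 were the abundant members that rose, and Gpd2, Pfkfb1, Phkg1 and Phkb were the less abundant members that fell against Control.

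**Figure D4:**
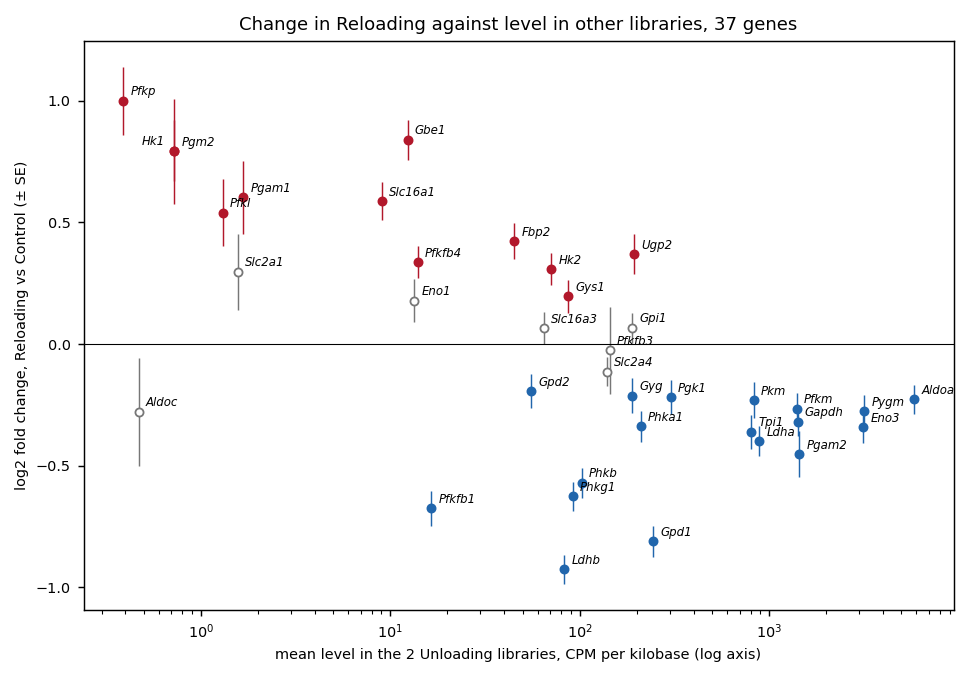
log2 fold change of Reloading against Control with SE (vertical axis) against the mean level in the 2 Unloading libraries in CPM per kilobase (horizontal log axis) for the 37 genes. Filled red points were called higher, filled blue points lower, and open grey points did not pass; rho across the genes was -0.625.

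Some of these calls rested on single libraries. In Reloading against Unloading, 19 of the 29 called members kept their call whichever library was left out, and 10 lost it under at least 1 omission. Pfkm lost it without any 1 of the Reloading libraries or Unloading 2, Tpi1 and Ldha without Reloading 1, Reloading 2 or Unloading 2, Slc16a3 without Reloading 3 or Unloading 2, Gyg without Reloading 1 or Unloading 1, Pgm2 without either Unloading library, Gys1 without Unloading 1 and Pygm without Unloading 2. The values of Pfkm and Tpi1 without Unloading 2 were -0.13 and -0.15 in place of -0.22 and -0.24. In Reloading against Control, 25 of 30 kept their call, and Pgk1, Pkm, Gys1, Gyg and Gpd2 lost it under at least 1 omission, at log2 fold changes of -0.18 to -0.20 for Pgk1, -0.20 to -0.22 for Pkm, 0.15 to 0.21 for Gys1, -0.15 to -0.17 for Gyg and -0.15 to -0.21 for Gpd2. In Unloading against Control, Ldhb, Pfkfb3 and Fbp2 kept their call, whereas Hk2 lost it without Unloading 1 (-0.30), Gbe1 without Control 2, Control 3 or Unloading 1 (0.34, 0.31 and 0.30) and Phka1 without Control 2, Control 3 or either Unloading library (0.22 to 0.29). Without Unloading 1, 3 members and 121 of all tested genes were called in that comparison, in place of 7 and 1470.

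The wider pathway was read from 50 further genes of sugar metabolism, of which 44 were expressed enough to be tested, and Hkdc1, Pklr, Ldhc, Gys2, Ppp1r3g and Fbp1 were not. In Reloading against Unloading, 9 rose and 10 fell, in Unloading against Control 2 rose and 2 fell, and in Reloading against Control 9 rose and 12 fell, against 37.5%, 9.9% and 43.5% of all tested genes called in either direction, with median log2 fold changes of 0.00, -0.07 and 0.05. Those that passed with a change of at least 1 on the log2 scale did so in Reloading against Unloading. Among them were Slc2a3 (GLUT3), the glucose transporter of neurons and blood cells (-1.62 ± 0.24, adjusted p = 9.41e-05), Eno2, the neuronal enolase (1.17 ± 0.30, adjusted p = 0.00673), and Ppp1r3f, a subunit that brings a phosphatase to glycogen (-1.03 ± 0.33, adjusted p = 0.0237). Ppp1r3f rested on 9 to 34 read pairs per library, and its call was lost in 7 of 19 alternatives, among them DESeq2, library totals (-0.78) and omission of Unloading 2 (-0.53). The call of Eno2 was lost without Unloading 1 (1.07). Slc2a3 was at 13.9, 10.5, 9.86 and 19.0 CPM in Control, 24.8 and 20.7 CPM in Unloading and 5.32, 7.38 and 9.21 CPM in Reloading, so that it peaked in Unloading as Pfkfb3 did, and unlike Pfkfb3 ended below every Control library.

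The further glycogen genes, named here after their values were seen, included several that fell. In Reloading against Unloading and against Control, the change was -23.9% and -34% for the abundant phosphoglucomutase Pgm1, the first of which did not pass with library totals alone (-0.15 on the log2 scale), -42% and -43.4% for the glycogen phosphatase laforin, Epm2a, and -48.4% and -45.8% for Ppp1r3a, the subunit that brings a phosphatase to glycogen in muscle, and all of them passed. Of the pentose phosphate pathway, which branches off at glucose 6-phosphate, Pgd rose 1.61-fold against Unloading and 1.82-fold against Control, and G6pdx and Tkt rose 1.66-fold and 1.43-fold against Control. Taldo1 rose 1.29-fold and 1.17-fold, and Pgls fell by 22.9% against Control.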

How the data were processed

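Polyadenylated RNA of gastrocnemius muscle was sequenced, and the deposited table holds raw counts of read pairs per gene, which per the submitters' processing notes and the file headers the authors made with STAR 2.7.3a and featureCounts 2.0.3 on GRCm38.p6 with Ensembl release 102, without strand and without reads that map to several places or genes. Reads from a gene and an overlapping or antisense gene can therefore not be told apart or are lost. The study's methods describe single reads of RNA, while the table counts pairs. The authors also deposited DESeq2 tables with their own fold changes and p-values, of which only the gene symbols were used.

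The test was run with edgeR 4.0.16 (R 4.3.3). Genes passing filterByExpr (minimum count 10, minimum total 15) were kept, libraries were scaled by TMM, and all 9 libraries entered 1 quasi-likelihood fit whose only term was the group. The F-test was two-sided, p-values were adjusted over all 14851 genes by Benjamini and Hochberg with a threshold of 0.05, and standard errors were derived from F. Log2 ratios of forms were compared by exact permutation tests. The fit was tested on simulated data. Alternatives were other scalings, filters and tests (DESeq2 1.42.0), a replicate block, the 2 groups alone and omission of libraries. The Unloading group has 2 libraries, so omitting 1 assumes that the other varies like the other groups.

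The 37 members, the further lists and the tests were chosen with earlier results of these data known. Values per library were given for members called with an absolute log2 fold change of at least 1 in any comparison and for both forms of a pair whose ratio did not overlap and differed by at least 1, and for other members as stated. Further pathway genes were named if called with a change of at least 1, at most 8 of them, and others as stated. Some further pathway genes are not reported here. Libraries of different groups with the same replicate number in the titles had correlations of deviations from -0.201 to 0.075. With the numbers in the descriptions these were 0.361, 0.143 and 0.155 for Reloading with Control, and 0.017 to 0.075 where Unloading was involved. The largest was that of Control 2 with Reloading 1, the libraries with keratinocyte transcripts. Libraries with unlike numbers were not compared, so whether either numbering marks pairs was not tested. No shared animal or day is stated. Exon windows of 50 bases were compared between genes on GENCODE release M21. Promoter sequences are from RefSeq. No protein sequences were used here.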

Additional observations from a re-analysis of the deposited data

Results flagged for a closer look

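Of 48 sets of 4 Control values examined, the levels of the 37 members and the 11 log2 ratios, 2 had a library whose gap to its nearest neighbour was too large a part of the group's range by Dixon's 95% limit, and chance alone flags about 1 in 20 such sets. Pkm was at 3909 CPM in Control 1, whereas the other Control libraries ranged from 4290 to 4368 CPM. Gys1 was at 404.6 CPM in Control 1 against 459.3 to 468.1 CPM in the others, and without Control 1 its log2 fold change in Reloading against Control was 0.15 and no longer passed. Groups of 3 and 2 libraries were not examined in this way.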

How the results depend on the processing

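The 6 counts of called genes, of members and of further pathway genes in each comparison, stayed within 1.5 times of those reported under every other scaling, filter, test and omission, except in Unloading against Control. There, further pathway genes called changed from 4 to 2 with the title numbers as a replicate block, and leaving out single libraries gave 3 to 9 members and 0 to 4 further genes, the lowest of each without Unloading 1, and 1 further gene without Control 3. With library totals alone, 9 member values that passed under at least 1 of the scalings changed sign. In Reloading against Unloading they became 0.24 for Gpi1, 0.0288 for Pfkm, 0.00861 for Tpi1 and 0.0137 for Ldha. In Reloading against Control they became 0.0113 for Aldoa, 0.0208 for Pgk1, 0.00956 for Pkm, 0.0269 for Gyg and 0.0451 for Gpd2. Another 6 values that passed under neither scaling also changed sign. These were Eno3 (0.13), Pgk1 (0.0879) and Pkm (0.0458) against Unloading, and Slc2a4 (0.126), Aldoc (0.00285) and Pfkfb3 (0.217) against Control. With the description numbers as a replicate block, 12 members were higher and 17 lower in Reloading against Control. No call there other than that of Gpd2 (-0.15) changed. With the title numbers as a block, 11 were higher and 15 lower. Log2 ratios changed sign in 4 cases. Pfkm to Pfkp in Unloading against Control (-0.09) ranged from -0.374 to 0.19 when single libraries were left out, turning without Control 3 (0.000989) and without Unloading 1. In the same comparison Pfkfb1 to Pfkfb4 (0.01) ranged from -0.0538 without Control 3 to 0.0708, and Slc2a4 to Slc2a1 (0.32) from -0.0647 without Unloading 2 to 0.71. Aldoa to Aldoc in Reloading against Control (0.07) ranged from -0.09 without Reloading 1 to 0.19, with -0.03 without Control 2 and -0.19 without Control 2 and Reloading 1. The cause was not tested. Over all member values and alternatives, 2091 were unchanged in direction and call, 103 lost and 20 gained the call. Depth limits Aldoc, Pgm2 and Pgam1, which had fewer than 100 read pairs in every library.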
